A study of Caenorhabditis elegans with 2 samples.

Results

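Ribosomal proteins are the protein part of the cytosolic ribosome. Here they were taken as the protein-coding genes of Caenorhabditis elegans whose symbols begin with rpl- or rla- (large subunit, with rla- for its stalk) or rps- (small subunit). In the Ensembl annotation of assembly WBcel235 this rule found 81 of 19973 protein-coding genes, 50 of the large and 31 of the small subunit. The measurement was chromatin immunoprecipitation with sequencing (ChIP-seq) of a tagged Y105C5A.15 protein in 2 biological replicates of 1 group. The animals were whole L4 larvae at 48 hours, synchronized by starving first-stage larvae after bleaching. Their strain, OP773, carries the integrated transgene wgIs773, which expresses Y105C5A.15 fused to TY1, EGFP and 3xFLAG together with unc-119(+), in the unc-119(tm4063) background, and both replicates share all of these. The precipitation used an antibody against GFP. The labels name no cell type within the animal, so peaks come from a mixture of tissues, and no sample without the tagged protein was analysed here. Precipitation by the antibody in the absence of the tagged protein and binding by that protein cannot be told apart here.

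As background, the large subunit of the ribosome joins amino acids and the small subunit reads the messenger RNA, and most ribosomal proteins are present in equal numbers in each ribosome. Genes for these proteins are among the most strongly transcribed in growing animals, and many of them carry small nucleolar RNA (snoRNA) genes in their introns, whose RNAs guide the modification of other RNAs. Many C. elegans messenger RNAs also receive a short leader by trans-splicing, so an annotated gene start can lie downstream of the place where transcription begins.

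A gene was called bound when the summit of a peak, its highest point, lay between 1000 bases upstream and 200 bases downstream of the annotated start. The main list was the longer of the authors' thresholded lists over both replicates. In that list 12 of the 81 ribosomal protein genes were bound, or 14.8% (95% exact Clopper-Pearson interval 7.90 to 24.4%). The background over the other 19892 protein-coding genes was 1.89%, which lies under that interval. The large subunit had 6 bound genes of 50 (12%, interval 4.53 to 24.3%): rpl-3, rpl-7A, rpl-15, rpl-32, rpl-35 and rla-1. The small subunit had 6 of 31 (19.4%, interval 7.45 to 37.5%): rps-1, rps-16, rps-19, rps-23, rps-24 and rps-26. These intervals overlap over most of their length, and the subunits were not shown to differ. The intervals cover counting error only, and genes that share an upstream region are not independent.

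The share was above the background in each of the other lists as well. In the authors' conservative list 13 members were bound (16.0%) against a background of 1.57%. That list held rpl-12, which codes for a protein at the base of the stalk, and rpl-20 in addition, and it lacked rpl-32. When replicate 1 was ranked against replicate 2, the IDR (irreproducible discovery rate, the authors' estimate of how likely a peak is to lack a counterpart of like rank) was 0.0069 for rpl-12, 0.0040 for rpl-20 and 0.0232 for rpl-32, on either side of the limit of 0.01. In the list of replicate 1 alone 9 members were bound (11.1%) against 0.618%, and in that of replicate 2 alone 5 were bound (6.17%) against 0.593%. The 5 genes of replicate 2 (rpl-3, rps-1, rpl-15, rps-19 and rpl-35) were all among the 9 of replicate 1, whose other members were rla-1, rpl-7A, rps-16 and rps-23. Among ranked peaks over both replicates with an IDR of at most 0.05, 21 members were bound (25.9%) against 4.1%. The 9 genes added by that limit were rpl-7, rpl-16, rpl-19, rpl-20, rpl-29, rpl-41.2, rpl-43, rps-11 and rps-12.

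**Figure D1:**
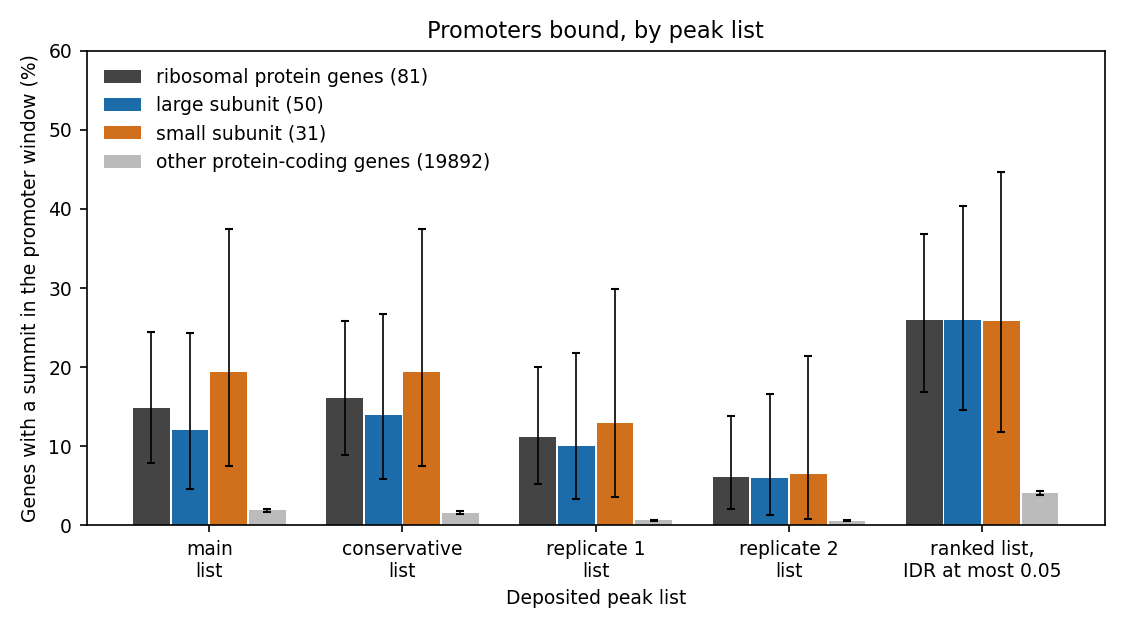
Share of genes with a summit in the promoter window (%) in each deposited peak list, for all 81 ribosomal protein genes, each subunit and the 19892 other protein-coding genes; bars are shares and lines are 95% exact Clopper-Pearson intervals. In the main list the share is 14.8% for ribosomal protein genes and 1.89% for the other genes, and the intervals of both subunits overlap in every list.

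Among the large subunit genes the strongest peak belonged to rpl-3, whose protein lies near the peptidyl transferase centre where amino acids are joined. Its signal, the authors' value for the peak in units that the sources do not explain, was 184 over both replicates, 92.0 in replicate 1 and 98.3 in replicate 2. The summit stood 273 bases upstream of the gene start. The gene rpl-15, which codes for a structural protein of the large subunit, had a signal of 146 over both replicates, 79.2 in replicate 1 and 66.2 in replicate 2, with its summit 341 bases upstream. The gene rpl-35 codes for a protein at the exit of the tunnel through which the new chain leaves. Its signal was 126, with 62.6 in replicate 1 and 61.1 in replicate 2, and its summit lay 457 bases upstream, the farthest of the 12. These genes were in every thresholded list, and they held the strongest 3 peaks of the family in the main list.

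The remaining large subunit genes had weaker peaks. The gene rla-1, for a P1 protein of the stalk that recruits translation factors, had a signal of 82.2 (45.2 in replicate 1 and 41.8 in replicate 2). The gene rpl-7A had 73.0 (40.5 and 33.8). The gene rpl-32 had 45.3 (22.2 and 25.6), the lowest of the 12, and its IDR in the main list, 0.0094, was just under the limit of 0.01. In each replicate's own ranked list its IDR was above 0.6, at 0.666 and 0.625, so rpl-32 was in neither replicate's thresholded list.

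Among the small subunit genes, rps-19 had a signal of 112 (65.1 in replicate 1 and 53.1 in replicate 2) and rps-1 one of 100.3 (55.7 and 43.3). They were the only small subunit genes in the lists of both replicates. In humans, mutations of RPS19, RPS24 and RPS26 are known causes of Diamond-Blackfan anaemia, a failure to make red blood cells. The gene rps-16 had a signal of 76.0 (41.5 in replicate 1 and 33.0 in replicate 2), and rps-23, whose protein lies at the decoding centre, had 59.5 (35.7 and 24.4). The thresholded list of replicate 1 held both of these genes and that of replicate 2 held neither. The gene rps-26, whose protein lies where the messenger RNA leaves, had a signal of 69.6 (26.9 and 40.2). The gene rps-24 had 66.1 (40.1 and 30.4). Both were absent from the thresholded list of either replicate, although the conservative list held them.

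For rps-24 the strongest peaks of the replicates' own ranked lists did not lie at the same place. The strongest peak of its window lay 354 bases upstream of the start in replicate 1 and 150 bases downstream in replicate 2, 504 bases apart. Their IDR values were 0.832 and 0.394. When replicate 1 was ranked against replicate 2, the strongest peak had the summit of the main list and an IDR of 0.0045. Of the 36-base words of the rps-24 main peak, 55.7% also occurred elsewhere in the genome. For rpl-7A that share was 16.3%, and for the other 10 bound members it was 0. The part of repeated sequence in the rps-24 peak was not tested.

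**Figure D2:**
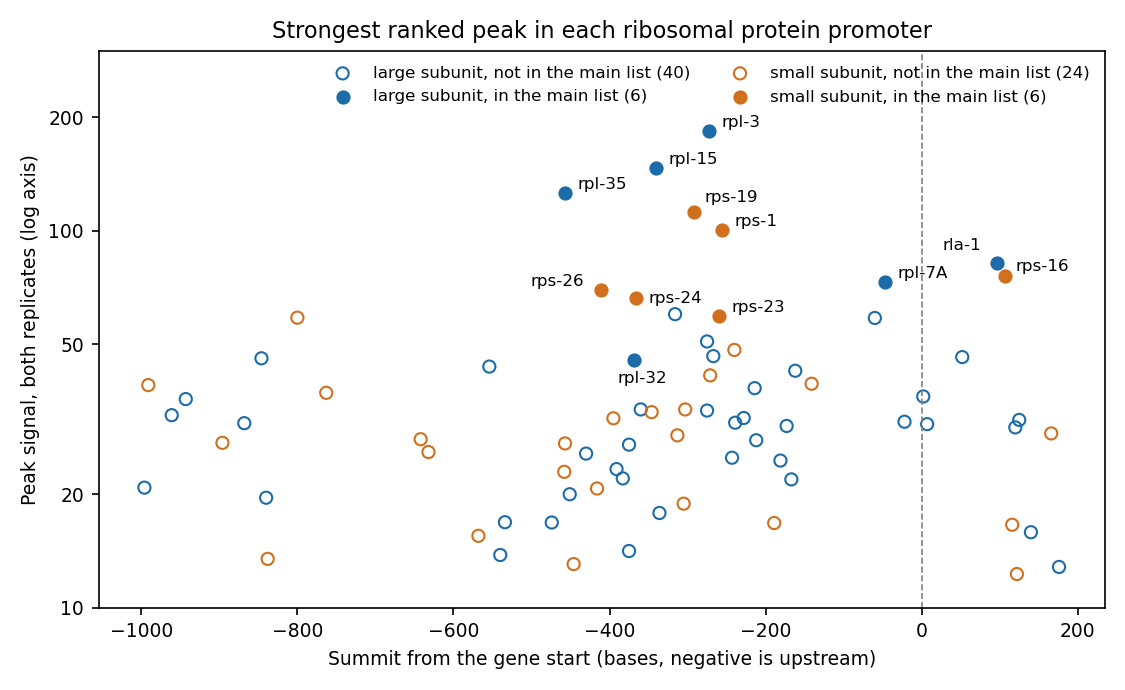
Strongest ranked peak over both replicates in each promoter window, with the summit's distance from the gene start in bases (x axis, negative is upstream) and the authors' signal on a log axis; each point is 1 gene, filled where the main list holds the peak, blue for the large and orange for the small subunit. The filled points run from 45.3 for rpl-32 to 184 for rpl-3, and 9 of 12 lie between 250 and 500 bases upstream.

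The 101 bases centred on the summit are given on the gene's strand for the 3 strongest members, for rps-1 and rps-23, which share words with them, and for rps-24, whose peak is repetitive. They come from the RefSeq copy of WBcel235, which is ce11. Capitals mark 3 words chosen after these windows had been read, on either strand, so they carry no test. The first word was TACGGT (on the other strand ACCGTA). The second word was AGCGTG (on the other strand CACGCT). The third word was AAGTGTA (on the other strand TACACTT).
rpl-3, chrIII:3867531-3867631, plus strand: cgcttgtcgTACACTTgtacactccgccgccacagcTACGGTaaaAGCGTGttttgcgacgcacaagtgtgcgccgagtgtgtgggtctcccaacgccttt
rpl-15, chrIV:654867-654967, minus strand: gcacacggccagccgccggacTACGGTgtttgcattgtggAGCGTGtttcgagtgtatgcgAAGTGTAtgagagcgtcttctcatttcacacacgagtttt
rpl-35, chrIII:7854627-7854727, plus strand: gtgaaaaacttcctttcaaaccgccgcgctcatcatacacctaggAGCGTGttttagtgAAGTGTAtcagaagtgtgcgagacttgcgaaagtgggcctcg
rps-1, chrIII:4475612-4475712, plus strand: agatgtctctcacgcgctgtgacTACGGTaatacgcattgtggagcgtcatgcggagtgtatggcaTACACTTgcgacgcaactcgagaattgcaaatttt
rps-23, chrIV:12391263-12391363, minus strand: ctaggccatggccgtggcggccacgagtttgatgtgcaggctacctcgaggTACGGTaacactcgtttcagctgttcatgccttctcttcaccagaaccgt
rps-24, chrIV:385471-385571, plus strand: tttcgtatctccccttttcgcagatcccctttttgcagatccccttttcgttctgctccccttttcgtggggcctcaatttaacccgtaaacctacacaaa

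Among the 12 summit windows, AAGTGTA occurred in 4, those of rps-1, rpl-3, rpl-15 and rpl-35, which are among the 5 strongest, and in none of the other 8. Of the 723 other main summits away from small RNA genes, 0.968% held it. TACGGT occurred in 4 of 12 (rpl-3, rpl-15, rps-1 and rps-23) against 4.98% of the others, and AGCGTG in 3 of 12 (rpl-3, rpl-15 and rpl-35) against 3.46%. The windows were read to choose the words, so these counts only describe the sequences shown. In the 500 bases upstream of the start TACGGT occurred in 4 of the 12 bound members and in 32 of the 69 others (46.4%), and in 13.8% of the other protein-coding genes, so among ribosomal protein genes it was no more frequent upstream of the bound ones. AGCGTG occurred there in 5 of the 12 bound members and 6 of the 69 others, with 7.96% over the other genes, and AAGTGTA in 4 of 12 and 3 of 69, with 7.93%. These upstream bases take in summit windows that were read to choose the words. The contrast of bound with unbound members is therefore not independent of that choice and carries no test.

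A further set of 4 words, common at small RNA summits of the same list, was counted on both strands. GGCCGA and ACCACT were known from an earlier look at these data. CGAACC and GTTCGA are words of the B box, a promoter element of tRNA genes. They overlap on opposite strands, so their counts are not separate. GGCCGA occurred in 0 of the 12 ribosomal protein windows, in 14.8% of 311 summits at small RNA genes and in 6.78% of the 723 other summits. For ACCACT these values were 0 of 12, 35.0% and 8.16%. CGAACC was found in 1 of 12 windows, with 41.5% and 4.70% in the other sets, and GTTCGA likewise in 1 of 12, with 43.7% and 5.95%. The ribosomal protein windows thus held few of the words of the small RNA summits, at counts too small to set them apart from the 723. The contrast with the small RNA summits follows in part from how the words were chosen and carries no test. The median GC content of the ribosomal protein windows was 52.0%, against 45.5% away from small RNA genes and 52.5% at them. A match of a word is a description of the letters and not of a binding site.

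The summits of the bound members ran from 457 bases upstream of the start, at rpl-35, to 107 bases downstream, at rps-16. Of 12 summits 10 were upstream of the start, with a median of −282.5 bases and quartiles at −366.75 and −203.75. In the band from 250 to 500 bases upstream, chosen after the values were seen, lay 9 of 12 (75%), against 94 of the 376 other bound protein-coding genes (25%), whose median was −323.5 and whose quartiles were −608.25 and −107. The quartile range of the members was within that of the other genes. In the large subunit 4 of 6 summits were in that band and in the small subunit 5 of 6. Of the 1046 peaks of the main list 98.8% were exactly 256 bases wide with the summit at the centre, which limits the resolution of each distance. The exception among the 12 was rpl-3, whose peak was 78 bases wide with the summit at base 63.

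The exceptions were rpl-7A, 47 bases upstream, and rla-1 and rps-16, 96 and 107 bases downstream in the genes' own coding exons. The latter pair were also the only bound members with the next upstream protein-coding gene on the same strand within 500 bases. These neighbours were Y37E3.8 before rla-1 and, ending 109 bases before the start, fib-1 before rps-16. The gene fib-1 codes for fibrillarin, the methyltransferase of snoRNA particles. Over all members 9 of 81 (11.1%) had such a neighbour, against 18.1% of the other protein-coding genes.

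Start sites in C. elegans can be trans-splice acceptors, which often read TTTCAG. This word ended within 1 base of the annotated start, on the gene's strand, in 40 of the 81 members (49.4%) and in 12.8% of the other protein-coding genes. Among bound members it did so in 6 of 12 (rpl-3, rpl-15, rps-1, rps-19, rps-26 and rla-1) and among the remaining members in 34 of 69 (49.3%). Distances are therefore from the annotated start and not from a measured start of transcription.

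Ribosomal protein genes often stand back to back with another gene. The next upstream protein-coding gene was on the opposite strand, pointing away, for 54 of 81 members (66.7%) and for 45.3% of the other protein-coding genes. The median gap to the next upstream protein-coding gene was 566 bases against 1163. For 9 of the 12 bound members no other annotated start was nearer to the summit than their own (75%), against 200 of the 376 other bound genes (53.2%). Counting protein-coding starts alone it was 10 of 12, against 80.3%.

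The 3 exceptions were of the small subunit. The rps-19 summit lay 153 bases upstream of hsr-9 on the opposite strand and 292 bases upstream of rps-19. The rps-26 summit lay 46 bases upstream of tmem-107 and 411 bases from rps-26. At rps-1 the summit stood 5 bases from the start of the non-coding RNA gene F56F3.11 and inside an exon of another, F56F3.10, and the next coding start, that of ifet-1, was 512 bases away. These peaks can be given to either gene by position, and the lists do not tell the candidates apart.

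Other divergent neighbours were farther from the summit than the ribosomal protein start: K11H12.8 at 473 bases for rpl-15, set-21, a SET-domain gene, at 207 bases for rpl-7A, and dpm-3, for a subunit of dolichol-phosphate mannose synthase, at 274 bases for rps-23. The same summits lay in the promoter windows of K11H12.8, set-21 and dpm-3. These genes therefore also counted among the other bound protein-coding genes, as did hsr-9, tmem-107 and ifet-1. By position the peaks at rpl-15, rpl-7A and rps-23 can thus be given to either gene as well. At rps-23 the own start was 260 bases from the summit, close to the distance of dpm-3. For rps-24 the next start was that of a pseudogene at 585 bases. No other start lay within 1000 bases of the summits of rpl-3, rpl-35 and rpl-32. The strongest peaks of the family thus included some with no other gene start near them, at rpl-3 and rpl-35. At rpl-35 the gap to the next upstream protein-coding gene reached 11497 bases.

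**Figure D3:**
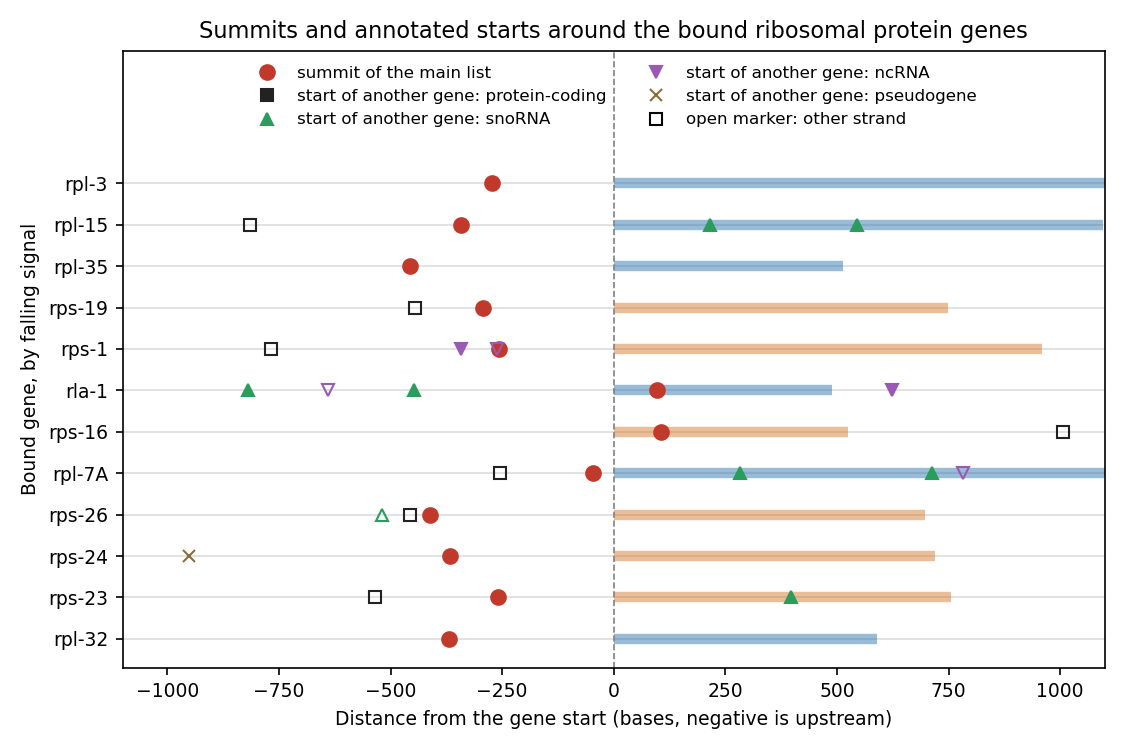
The 12 bound ribosomal protein genes in order of falling signal, each aligned at its annotated start (0 bases) and drawn in its own direction; the bar is the gene (blue large, orange small subunit; longer genes run past the right edge), the red circle is the main summit, and other markers are starts of other genes, filled on the same strand and open on the other. The summits of rps-19 and rps-26 lie beside divergent coding starts, that of rps-1 at a non-coding RNA start, and those of rla-1 and rps-16 inside the gene.

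SnoRNA genes lie inside 13 of the 81 members (16.0%), 19 snoRNAs in all, and inside 0.734% of the other protein-coding genes. Among the bound members 3 of 12 were hosts, rpl-7A, rpl-15 and rps-23, and among the unbound members 10 of 69. None of the 19 hosted snoRNAs had a main summit within 100 bases (0 of 19, interval up to 17.6%), while 55 of the other 327 snoRNA genes did (16.8%, interval 12.9 to 21.3%). These intervals overlap. Likewise 0 of the 12 bound members had their summit within 100 bases of a tRNA, snoRNA, snRNA or rRNA gene, against 79 of the 376 other bound genes (21.0%).

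The closest approach was at rps-26, with 107 bases between the summit and the snoRNA gene F39B2.14, which is not hosted by it. The summit of rpl-7A was 329 bases from Y24D9A.9, that of rpl-15 was 556 bases from K11H12.13, and that of rps-23 was 658 bases from F28D1.13, all on the side of the host gene. For rla-1 the nearest was Y37E3.22, 405 bases upstream. Some hosted snoRNAs had ranked peaks within 100 bases that missed the threshold, with signals of 41.7 at R151.11 in rpl-6, 41.6 at B0412.7 in rps-29 and 37.7 at F28C6.11 in rpl-26. Their IDR values were 0.327, 0.162 and 0.215. The genes rpl-6 and rpl-26 had no ranked peak in their promoter windows.

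Below the threshold, most members still had a peak in the ranked list over both replicates. A summit lay in the window of 76 of 81 members (93.8%) and of 73.5% of the other protein-coding genes. The exceptions were rpl-6, rpl-11.1, rpl-18, rpl-26 and rps-25. The strongest peak per window had a median signal of 31.1 over the 76 members, with quartiles of 22.0 and 45.5, against 22.6 over the other genes with a peak. Of all 81 members 29 (35.8%) were above 35.3, the value that 10% of the other genes exceed. Of the 69 members outside the main list 17 did so (24.6%), and the 64 with a peak ranged from 12.3 at rps-2 to 60.1 at rpl-20 with a median of 28.8. The large subunit (median 31.1 over 46 genes) and the small subunit (30.4 over 30) were close to each other.

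Each replicate alone showed the members above the other genes in the same way. In replicate 1 a summit lay in 62 windows, with a median of 17.6 against 14.0, and 27 of 81 members (33.3%) were above the value that 10% of the other genes exceed. In replicate 2 there were 67 windows, with 18.3 against 15.0, and 32 members (39.5%) were above it. Among the 69 members outside the main list these were 15 in replicate 1 and 20 in replicate 2. The members outside the main list thus also ranked above the other genes in both replicates, by more than the share of 10% that defines the value.

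The strongest members outside the main list were rpl-20, rps-11, rpl-12, rpl-41.2, rps-20 and rpl-29. The gene rpl-20 had a signal of 60.1 at 316 bases upstream with an IDR of 0.0103, just past the limit of 0.01. For rps-11 the signal was 58.8 (IDR 0.0104) with the summit 800 bases upstream, and the replicates' own strongest peaks lay 467 bases apart. For rpl-12 it was 58.7 at 60 bases upstream with an IDR of 0.125. Replicate 1 gave rpl-12 a signal of 33.1, and replicate 2's own ranked list had no peak in its window. The gene rps-20 was like it, with 48.3 over both replicates, 29.8 in replicate 1 and no peak in replicate 2's own ranked list. When replicate 1 was ranked against replicate 2, both genes had a peak, with an IDR of 0.0069 for rpl-12 and 0.0157 for rps-20. The genes rpl-41.2 (50.8, 275 bases upstream) and rpl-29 (46.5, 267 bases upstream) had summits in the same band as most bound members. In all, 8 members outside the main list had a stronger signal than rpl-32, the weakest bound one, since the list is set by the IDR and not by the signal.

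Genes whose symbols differ only in the number after the point had these signals over both replicates. The signal was 50.8 for rpl-41.2 and 30.4 for rpl-41.1, 42.5 for rpl-24.2 and 35.8 for rpl-24.1, and 30.7 for rpl-25.2 and 27.8 for rpl-25.1. The gene rpl-11.2 had 19.6 and rpl-11.1 no ranked peak. None of these was in a thresholded list, and no pair was tested. For rpl-24.2 and rpl-24.1 the order turned between replicates, with 27.0 against 16.1 in replicate 1 and 16.0 against 24.0 in replicate 2. It also turned for rpl-25.2 and rpl-25.1, with 15.4 against 17.5 and then 18.3 against 15.4. For rpl-41.2 and rpl-41.1 it held, with 30.7 against 13.6 and 20.3 against 14.2. The strongest peaks of the replicates lay 708 bases apart at rpl-24.1 and 729 at rpl-25.1. The turned orders therefore compare different peaks of these genes. In replicate 2 the rpl-24.1 peak was also the strongest in the window of its divergent neighbour rps-10. Despite their names rpl-7 and rpl-7A code for different proteins; rpl-7 had a signal of 45.9 with the summit 846 bases upstream and was not bound. The divergent pair rpl-36 and rps-14 shared 1 ranked peak, with a signal of 33.6, 360 bases upstream of the first and 303 of the second.

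Replicates were compared over members to ask how far the peaks repeat. The strongest peaks of both replicates could be compared for 54 of the 81 members, across which log2 signals had Pearson's r of 0.70 and Spearman's rho of 0.57. These are correlations across genes of the same libraries, given as a description. Over the 12 bound members r was 0.86 and rho 0.90, and over the 42 others r was 0.24 and rho 0.17. The bound members were kept by the IDR of the ranked list over both replicates, which is not the IDR of replicate 1 ranked against replicate 2. The conservative list, which does compare the replicates, held 11 of the 12. The higher values over the bound members are thus not independent of how they were chosen. They are not separate evidence that the peaks repeat. Over 5932 other protein-coding genes r was 0.40 and rho 0.32.

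The distance between summits was read with the same limit, since the bound members had been chosen from these same replicates. The summits of replicate 1 and replicate 2 were a median of 34 bases apart at the bound members, and within 100 bases at 11 of 12, rps-24 being the exception. At the 369 other bound genes with a peak in both replicates the median was 28 bases and 85.9% were within 100. At the 42 members outside the main list the median was 250.5 bases, and 12 of the 42 were within 100. The correlation over these 42 thus mostly pairs different peaks. Of the 12 bound members 3, rpl-3, rps-26 and rpl-32, had the higher signal in replicate 2. The median ratio of replicate 2 to replicate 1 was 0.836. Of the 369 other bound genes 209 were higher in replicate 2, with a median ratio of 1.07. Among the 42 members outside the main list it was 27, with a ratio of 1.12. The SD between the replicates ranged from 1.08 at rpl-35 (mean 61.9, n = 2) to 9.43 at rps-26 (mean 33.5, n = 2).

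Of the 12 bound members 9 were also bound in the list of replicate 1 (75%, interval 42.8 to 94.5%), against 31.1% of the other 376 bound genes. In replicate 2 it was 5 of 12 (41.7%, interval 15.2 to 72.3%), against 30.3%. The conservative list held 11 of 12, against 75% of the others. Without replicate 1 the count of bound members fell from 12 to 5, and without replicate 2 it was 9.

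**Figure D4:**
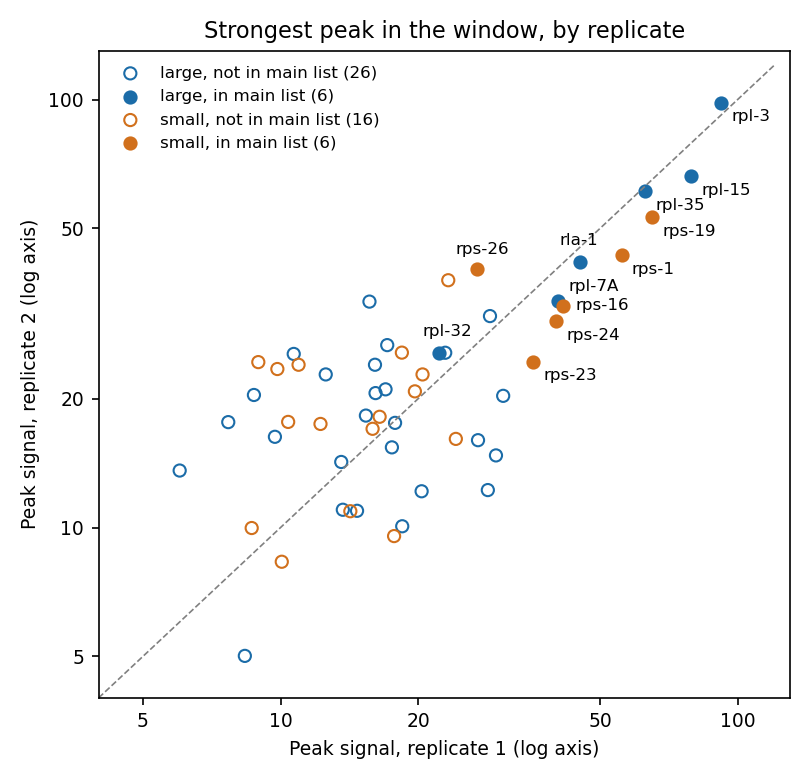
Signal of the strongest ranked peak in the promoter window in replicate 1 (x axis) and replicate 2 (y axis), both on log axes, for the 54 ribosomal protein genes with a peak in both; filled points are in the main list, blue large and orange small subunit, and the dashed line marks equal signal. The filled points run along the line from rpl-32 to rpl-3, while the open points scatter widely. The paired summits were within 100 bases of each other for 11 of the 12 filled points and 12 of the 42 open points. Most open points thus pair different peaks.

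By chromosome, the bound members were 3 of 25 on chromosome I, where 2.80% of the other protein-coding genes were bound, and 1 of 10 on II, with 1.92% of the others. They were 3 of 18 on III (others 2.90%), 4 of 18 on IV (others 2.11%), 1 of 8 on V (others 0.842%) and 0 of 2 on X (others 1.58%). The counts per chromosome are too small to compare chromosomes.

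Other genes of the translation machinery were taken as lists by symbol, and the background for each is the 1.89% of protein-coding genes outside the ribosomal protein genes. Ribosomal proteins under other names, the ubiquitin fusion genes ubl-1 and ubq-2 and rack-1, had 0 bound of 3, with signals of 50.7, 26.1 and 14.7 in the ranked list. Of 70 mitochondrial ribosomal protein genes 2 (2.86%, interval 0.348 to 9.94%) were bound, mrpl-23 with a signal of 119 at 981 bases upstream and mrps-5 with 47.3 at 92 bases downstream. Of 37 translation factor genes 1 (2.70%, interval 0.0684 to 14.2%) was bound, egl-45, for a subunit of initiation factor eIF3, with 49.7 at 65 bases downstream. The conservative list held eef-1B.1, for an elongation factor subunit, in its place. The shares of the mitochondrial and translation factor lists were near the background of 1.89%, which their intervals include, and the intervals also overlap that of the cytosolic genes.

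Of 16 ribosome assembly genes 1 was bound (6.25%, interval 0.158 to 30.2%), pro-1, with a signal of 63.8 at 22 bases upstream, and of 10 genes for subunits of RNA polymerases I and III 1 was bound (10%, interval 0.253 to 44.5%), rpac-19, with 67.0 at 126 bases upstream. Both intervals include the background of 1.89%. In the ranked list over both replicates, the value that 10% of the other genes exceed was passed by 10 of 37 translation factor genes, 6 of 16 assembly genes, 4 of 10 polymerase genes and 10 of 70 mitochondrial ribosomal protein genes, next to 29 of 81 cytosolic ones. In replicate 1 these counts were 10, 3, 6 and 11, next to 27 cytosolic genes, and in replicate 2 they were 8, 5, 1 and 11, next to 32. The order of the lists thus differed between the replicates.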

How the data were processed

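Sonicated chromatin was precipitated and mapped to ce11, per the labels. The authors deposited peak lists made from alignments and 1 control alignment file (peak caller and aligner: not given in the sources used here). Each peak's signal is the authors' value, and the ranked lists hold the deposited −log10 of the global IDR. Thresholded lists held peaks with an IDR of at most 0.01. The lists carry no read counts, so depth is unknown. The conservative list compares replicate 1 with replicate 2.

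Starts came from Ensembl release 115 (WBcel235), without the mitochondrial genome. For each window the strongest peak was taken from each list. Python 3.11.15, pandas 2.3.3 and SciPy 1.17.1 were used, and the assignment was tested on simulated data. No test was run: shares have 95% exact intervals. Alternatives changed the list, window, assignment, IDR limit and gene start. Genes named were the bound members, the 6 strongest unbound ones, paralogs, and bound genes of the pathway lists. Members and lists were chosen with earlier results of these data known.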

Additional observations from a re-analysis of the deposited data

How the results depend on the processing

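None of the settings changed the order of the shares of ribosomal protein genes and other genes. With ranked peaks at an IDR of at most 0.05, the share bound moved from 14.8 to 25.9%, the number of large subunit genes from 6 to 13 and the number of summits nearest to the member's own start from 9 to 15. When a summit counted only for the nearest start, the small subunit count moved from 6 to 3, since rps-1, rps-19 and rps-26 were lost. Leaving out 1 replicate gave a share of 6.17 to 11.1%, 3 to 5 large and 2 to 4 small subunit genes, 3 to 6 summits nearest to the own start, and a median strongest signal of 17.6 to 18.3 in place of 31.1; the cause of the moves was not tested. The share of other genes bound moved as well, from 1.89% to 4.10% at the IDR limit of 0.05 and 1.01% with the nearest start only. Without replicate 2 it was 0.618% and without replicate 1 it was 0.593%. The median strongest signal of other genes with a peak was 22.6 over both replicates, 14.0 in replicate 1 and 15.0 in replicate 2. The Spearman rank correlation between replicates was 0.568 over all members and 0.167 without the bound ones. A window of 2000 bases upstream gave 16 bound members, with 2.86% of other genes bound, and 1 of 500 upstream and 100 downstream gave 11, with 1.16%. The median distance stayed between −353.5 and −273 bases. No paired analysis was possible because there was only 1 group.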

Other observations

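Beyond the promoter window, the main list had summits inside ribosomal protein genes without a bound promoter. In rpl-1 they lay 635 and 842 bases downstream of the start, with signals of 13.9 and 21.2, low for the list, whose median was 63.5. In rpl-31 they lay 248 and 639 bases downstream, with signals of 58.2 and 5.32. Some of these values also belonged to promoter windows of other genes. The signal of 58.2 was that of sac-2, the divergent neighbour of rpl-31, with its summit at −553 bases. The signal of 21.2 was also that of Y71F9AL.12, with its summit at −175 bases. By position such peaks can be given to either gene, and the share of other genes with summits beyond the window was not counted. The first rpl-31 summit was close to the edge of the window, and rpl-31 counted as bound when any overlap of the peak was enough or when the most downstream coding start was used.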
